A study of Mus musculus with 32 samples.

Results

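Binding sites of the transcription factor HNF4A were described at 8 genes of intestinal iron and calcium absorption, Slc11a2, Cybrd1, Slc40a1, Heph, Fth1, Trpv6, S100g and Atp2b1. Peaks of 8 HNF4A ChIP-seq libraries were merged where they shared 1 bp or more, and merged sites touching the body of one of these genes or the 20 kb on either side were kept (mm9, GENCODE M1). This gave 27 sites of 45552 in all: 11 at Slc11a2, 7 at Fth1, 6 at Atp2b1, 1 each at Cybrd1, Slc40a1 and Heph, and 0 at Trpv6 and S100g. The libraries came from unsorted preparations of jejunal intestinal epithelial cells (IECs) of male C57BL/6J mice aged 10 to 12 weeks, 1 mouse per library. All mice received a high-fat meal (HFM), a gavage of egg yolk emulsion, 2 hours before collection. In GF+HFM, 4 mice were germ free, and in CV+HFM, 4 formerly germ-free mice had carried a conventional microbiota for 14 days. The preparation also holds some crypt and mesenchymal cells, and expression was not analysed here, so the cell type was not checked against marker levels. In such a bulk preparation, fewer cells with HNF4A bound and weaker binding in each cell cannot be told apart.

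Dietary iron enters the enterocyte across its apical membrane after reduction at the cell surface, is stored on ferritin or carried out across the basolateral membrane, and is oxidized again on the way out. Calcium takes a parallel route through an apical channel, a cytosolic binding protein and a basolateral pump, a route known for its control by vitamin D. HNF4A is a nuclear receptor that binds DNA in villus enterocytes and is known for its part in genes of nutrient uptake.

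The sites called in all 8 libraries, and the leading site of each other gene, carry the results below, and their reference sequence (mm9, plus strand) is shown for that reason. The leading site of a gene is the one called in the most libraries, with ties broken by the mean width percentile. Each window is 200 bp around the centre of the stretch that the most libraries share. Capitals mark matches, on either strand, to any of 5 patterns: the HNF4-type element CAAAGTCCA with at most 1 mismatch, a direct repeat of AGGTCA with 1 base between the copies (the HNF4A and PPAR type) or with 3 bases between them (the vitamin D receptor type) with at most 2 mismatches, the hypoxia element core ACGTG, and the CDX2-type element TTTATGG. For Heph the 197 bp before the gene start are shown, since the rest of the window lies in a UTR.
Slc11a2 site 5, chr15:100252247-100252446: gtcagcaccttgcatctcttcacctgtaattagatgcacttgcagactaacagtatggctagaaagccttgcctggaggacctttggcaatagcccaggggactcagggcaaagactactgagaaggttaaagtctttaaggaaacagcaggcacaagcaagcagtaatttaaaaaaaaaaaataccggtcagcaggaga
Fth1 site 3, chr19:10042997-10043196: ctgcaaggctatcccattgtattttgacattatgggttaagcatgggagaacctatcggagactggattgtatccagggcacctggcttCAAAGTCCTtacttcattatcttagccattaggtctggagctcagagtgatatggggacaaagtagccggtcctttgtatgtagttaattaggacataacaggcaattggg
Fth1 site 5, chr19:10051664-10051863: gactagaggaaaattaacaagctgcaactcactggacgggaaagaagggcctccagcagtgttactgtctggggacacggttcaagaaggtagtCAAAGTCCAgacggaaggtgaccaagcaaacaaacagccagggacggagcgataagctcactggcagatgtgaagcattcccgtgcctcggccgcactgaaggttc
Fth1 site 6, chr19:10058085-10058284: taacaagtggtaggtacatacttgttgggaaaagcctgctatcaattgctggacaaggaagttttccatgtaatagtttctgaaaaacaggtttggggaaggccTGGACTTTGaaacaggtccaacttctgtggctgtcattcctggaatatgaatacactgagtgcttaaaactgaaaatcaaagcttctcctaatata
Heph site 1, chrX:93650501-93650697: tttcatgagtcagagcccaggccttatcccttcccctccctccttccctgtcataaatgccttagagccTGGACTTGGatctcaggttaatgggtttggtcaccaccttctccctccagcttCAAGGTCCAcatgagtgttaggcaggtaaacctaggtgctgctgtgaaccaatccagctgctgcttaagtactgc
Atp2b1 site 5, chr10:98387896-98388095: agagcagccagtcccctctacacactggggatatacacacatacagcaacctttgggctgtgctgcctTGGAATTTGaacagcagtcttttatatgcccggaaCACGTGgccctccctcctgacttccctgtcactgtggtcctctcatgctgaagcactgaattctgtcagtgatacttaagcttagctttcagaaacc
Slc40a1 site 1, chr1:45982773-45982972: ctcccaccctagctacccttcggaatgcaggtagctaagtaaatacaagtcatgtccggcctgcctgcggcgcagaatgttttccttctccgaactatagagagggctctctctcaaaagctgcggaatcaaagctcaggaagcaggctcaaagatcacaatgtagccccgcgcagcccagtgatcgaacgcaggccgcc
Cybrd1 site 1, chr2:70984295-70984494: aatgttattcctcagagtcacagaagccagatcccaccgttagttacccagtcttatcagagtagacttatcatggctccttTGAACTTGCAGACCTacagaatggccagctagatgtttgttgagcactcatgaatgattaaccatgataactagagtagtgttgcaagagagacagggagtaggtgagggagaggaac

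Of the 4 sites called in every library, the 3 at Fth1 held an HNF4-type element, on the plus strand in sites 3 and 5 and on the minus strand in site 6, and the match was exact in sites 5 and 6. How often sites called in every library hold this element was not computed over the genome. Slc11a2 site 5 and the Slc40a1 site held none of the patterns in these windows. The promoter of Heph carried 2 HNF4-type elements with 1 mismatch each, and Atp2b1 site 5 carried 1 beside a palindrome that holds the hypoxia core on both strands. The capitals at Cybrd1 mark the vitamin D receptor type of repeat on the minus strand, with 2 mismatches.

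Over the 27 sites, 3 (11.1%) held an exact CAAAGTCCA in the 200 bp window, against 5.98% of 45325 windows of all sites. These are the windows that lay within a chromosome of the reference and held no undetermined base (N). With at most 1 mismatch, the element was present in 10 sites (37%), against 33.6% of all windows. These 10 lay unevenly among the genes, at 6 of 7 sites of Fth1, 2 of 6 of Atp2b1, 1 of 11 of Slc11a2 and 1 of 1 of Heph. The direct repeat with 1 base between was found at 1 site (3.7%, all sites 14.6%), Slc11a2 site 2, and the repeat with 3 bases between at 1 site (3.7%, all sites 4%). The hypoxia core, bound by hypoxia-inducible factors such as HIF2A, was found at 6 sites (22.2%, all sites 11.1%), of which 4 lay at Slc11a2 and 2 at Atp2b1. The CDX2-type element was found at 2 sites (7.41%, all sites 3.55%), both at Slc11a2. These shares are descriptions of the reference sequence, and a match is not a measured binding site of the factor named.

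The lists hold peak positions only, so 2 measures were available at a site: whether a library called it, and the width of its widest peak there as a percentile of the widths in that library's own list. GF+HFM lists held 31061 to 36846 peaks and CV+HFM lists 4533 to 29345, with median widths of 298 to 464 bp and of 103 to 318 bp. The narrowest peak of a list was 157 to 223 bp wide in GF+HFM and 52 to 171 bp in CV+HFM. Read depth is unknown, and CV+HFM replicates 2 and 4, with 9206 and 4533 peaks, stood apart from the rest. A site that these lists lack is therefore one not called, which is not evidence that it was unbound.

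GF+HFM libraries called 22, 16, 23 and 19 of the 27 sites, and CV+HFM libraries called 16, 7, 13 and 4. The means were 20 ± 3.16 and 10 ± 5.48 sites (SD, n = 4 each), and the groups met at 16. Over the same libraries, all sites called ran from 29141 to 34812 in GF+HFM and from 4087 to 27697 in CV+HFM. Per 1000 sites called, the 8 genes held 0.632, 0.549, 0.700 and 0.563 sites in GF+HFM and 0.578, 0.801, 0.660 and 0.979 in CV+HFM. On that scale the groups overlapped and the order of the means was turned, at 0.611 ± 0.0694 and 0.754 ± 0.176 (SD, n = 4 each). The highest values were those of CV+HFM replicates 2 and 4, the shortest lists, and replicates 1 and 3 lay within the range of GF+HFM.

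GF+HFM had the larger number of calls at 23 of the 27 sites (85.2%, all sites 86.5%), the groups had equal numbers at 4 (14.8%, all sites 10.7%), and CV+HFM had the larger number at 0 (all sites 2.86%). Sites called in GF+HFM alone numbered 11 (40.7%, all sites 35.6%). Calls in all 4 GF+HFM libraries were made at 14 (51.9%, all sites 50.6%), and calls in all 8 libraries at 4 (14.8%, all sites 7.56%). In merged width, with a median of 438 bp against 437 bp, and in GC content of the windows, with a median of 49% in both, the 27 were near all sites. None had 4 GF+HFM calls with 0 in CV+HFM, the only pattern of fewer calls in CV+HFM that gives p = 0.0286 in Fisher's exact test with 4 libraries against 4. The test at an unadjusted p of 0.05 or less called 0 of the 27 in either direction, against a background of 2.79% of all sites with fewer calls in CV+HFM and 0% with more. The smallest p over the 27 was 0.143, and after Benjamini-Hochberg adjustment over all 45552 sites none in the genome was below 0.824.

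The 16 sites called in any CV+HFM library followed 1 order. Those in CV+HFM replicate 4 were 4, all of them also in replicate 2, which called 7, all of them also in replicate 3, which called 13, and all of these were in replicate 1, which called 16. Such nesting by length of list held for 100% of the 16 sites and for 92.1% of the 29326 sites called in any CV+HFM library. Of the 14 sites called in all 4 GF+HFM libraries, CV+HFM replicates 1 to 4 called 100%, 50%, 85.7% and 28.6%. Those shares over all 23049 such sites were 91.6%, 37.1%, 78% and 17%.

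**Figure D1:**
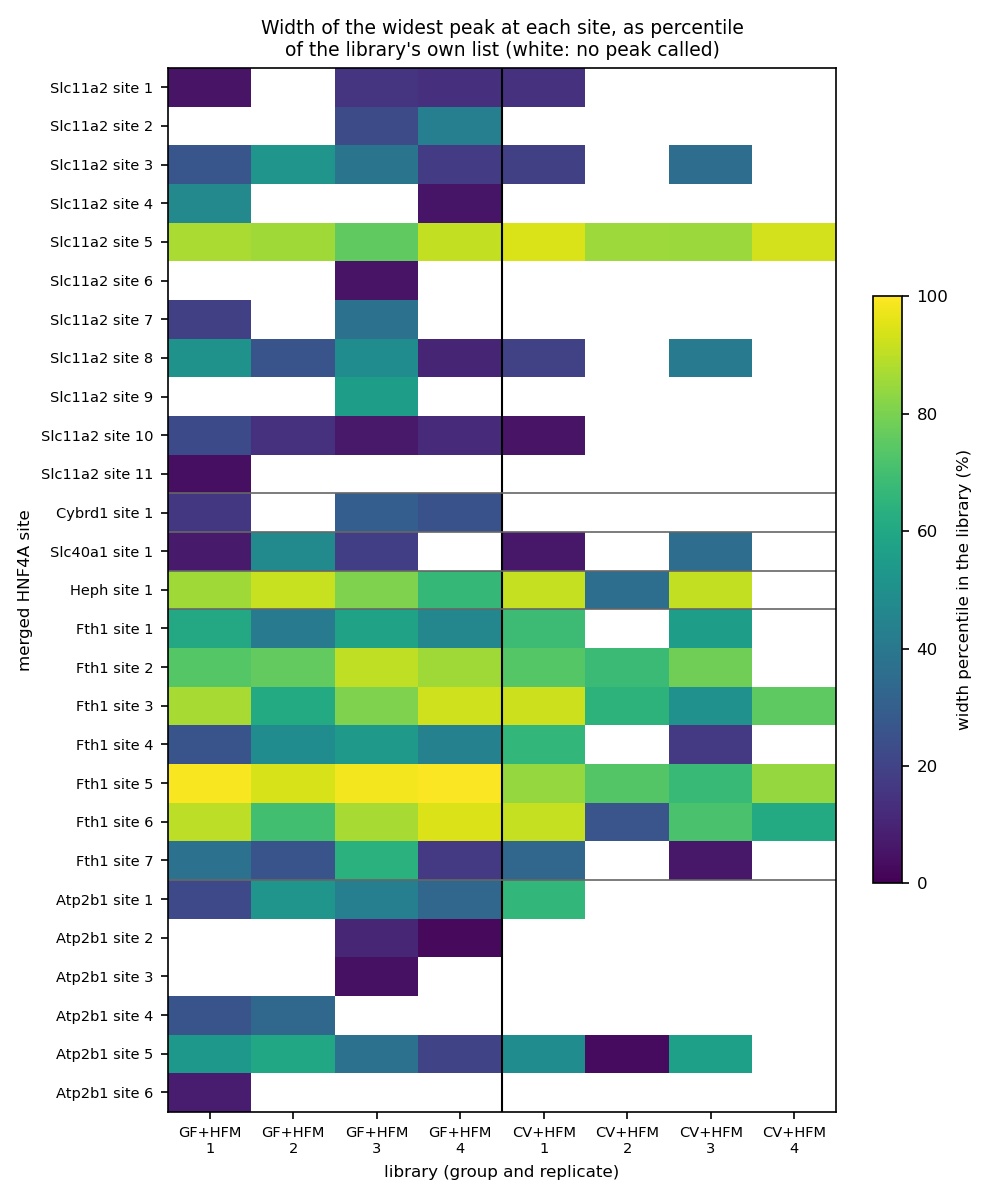
Heat map of the 27 merged HNF4A sites (rows, numbered along each gene from upstream to downstream) in 8 libraries (columns, GF+HFM left of the line and CV+HFM right of it). Color gives the width of the widest peak as a percentile of that library's list, and white means no peak was called. Rows without white are Slc11a2 site 5 and Fth1 sites 3, 5 and 6, and white is most common in CV+HFM replicates 2 and 4, which called 7 and 4 of the 27 sites.

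Slc11a2 encodes DMT1, the transporter that carries ferrous iron across the apical membrane. It lies on the minus strand at chr15:100218329-100255503, and its 11 sites spread over the gene from 18133 bp before its start to intron 9. With 14.3 sites per 100 kb of window, it exceeded 95% of the 22380 protein-coding genes. Site 5, at chr15:100251736-100252665, was the only one of the 11 called in all 8 libraries. It lies in intron 1 of the transcripts that start at position 100253486, 1139 bp from that start, and also covers the start of a transcript of Gm5475, a gene on the opposite strand. Its widest peaks measured 586, 497, 581 and 930 bp in GF+HFM replicates 1 to 4, and 682, 282, 435 and 310 bp in CV+HFM replicates 1 to 4. In percentiles of width these were 87.4, 85.9, 75.4 and 90.8 in GF+HFM and 94.5, 85.2, 85.1 and 93.0 in CV+HFM. The site was thus among the wider peaks of every list, with group means of 84.9 ± 6.65 and 89.4 ± 5 (SD, n = 4 each) that overlapped.

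The other 10 sites of Slc11a2 were called less often. Site 3, at chr15:100254773-100255137, in the first intron of the transcript with the most upstream start and 523 bp from that start, and site 8, at chr15:100243631-100244090 in intron 1, were each present in every GF+HFM list, and in those of CV+HFM replicates 1 and 3 (p = 0.429 by Fisher's exact test). Site 10, at chr15:100236458-100236732 over exon 6 and intron 6, was present in every GF+HFM list but only in that of CV+HFM replicate 1 (p = 0.143 by Fisher's exact test). Its peaks were narrow, at percentiles of 6.84 to 22.6 in GF+HFM and 5.1 in CV+HFM. Site 4, at chr15:100252993-100253547, covers the starts of the transcripts at positions 100253486, 100253433 and 100253400, has a GC content of 77% in its window and was called in GF+HFM replicates 1 and 4 only. Of its peaks, only 1, from GF+HFM replicate 1, lies over these starts. Site 1, 18133 bp upstream, had peaks in 3 GF+HFM lists and in that of CV+HFM replicate 1. Sites 2, 6, 7, 9 and 11 rested on 1 or 2 GF+HFM lists, with 0 calls in CV+HFM. By library, the gene held 8, 4, 9 and 7 sites in GF+HFM and 5, 1, 3 and 1 in CV+HFM. The means of 7 ± 2.16 and 2.5 ± 1.91 (SD, n = 4 each) differed by -4.5, with the groups overlapping at 4 to 5 sites (exact permutation test, two-sided, p = 0.0571). The difference per 1000 sites called was -0.0392 (exact permutation test, p = 0.371), and without CV+HFM replicates 2 and 4 the difference in the count was -3 (exact permutation test, p = 0.267).

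Cybrd1, at chr2:70955980-70980983 on the plus strand, encodes the cytochrome b reductase that turns ferric into ferrous iron at the apical surface. Its single site, chr2:70984041-70984500, lies 3058 bp past the end of the gene. Widest peaks of 199, 312 and 328 bp were called in GF+HFM replicates 1, 3 and 4, at percentiles of 16.3, 29.8 and 25.2, and none in GF+HFM replicate 2 or in CV+HFM. These were narrow peaks in their lists, and 3 calls against 0 gave p = 0.143 in Fisher's exact test.

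Fth1 encodes the heavy chain of ferritin, which oxidizes and stores iron in the cell. The gene is short, at chr19:10057193-10059582 on the plus strand, and its 7 sites gave 16.5 per 100 kb of window, more than 97% of protein-coding genes. Of these, 5 lay upstream, centred 18046, 16324, 14096, 7525 and 5429 bp before the gene start. Site 6 covers exon 1 and intron 1, and site 7 lies downstream over coding sequence of Best1. All 7 were called in every GF+HFM library. CV+HFM replicates 1 to 4 called 7, 4, 7 and 3 of them. Sites 3, 5 and 6 were called in all 8 libraries, site 2 in all but CV+HFM replicate 4, and sites 1, 4 and 7 in all but CV+HFM replicates 2 and 4.

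Fth1 site 5, at chr19:10050420-10052093, is 1674 bp long and was the leading site of the gene. Its widest peak measured 1112, 636, 1250 and 1674 bp in GF+HFM replicates 1 to 4 and 511, 235, 334 and 229 bp in CV+HFM replicates 1 to 4. In percentiles of width these were 99.1, 94.1, 98.4 and 99.3 in GF+HFM, and 84.3, 73.1, 67.5 and 84.1 in CV+HFM. Each GF+HFM value was above each CV+HFM value on both scales. Percentiles that did not overlap and were lower in CV+HFM were found at 7.05% of the 3445 sites called in all 8 libraries, and at 1 of the 4 of the members, and 0.639% did not overlap and were higher. In GF+HFM replicate 2 and CV+HFM replicates 1 and 3 the site held 2 separate peaks, so the widest peak covers a part of it there. CV+HFM replicates 2 and 4 had 1 peak, in the part nearer the gene. In GF+HFM replicates 1, 3 and 4 a single peak spanned both parts, so the widths set joined peaks against split or partial ones. Fth1 site 6, at chr19:10057290-10058538, had percentiles of 90.1, 69.9, 87.0 and 94.9 in GF+HFM and of 91.4, 26.5, 71.3 and 61.0 in CV+HFM, which overlapped. Fth1 site 3, at chr19:10042424-10043422, had percentiles of 86.9, 61.1, 80.8 and 92.8 in GF+HFM and of 92.3, 64.6, 50.6 and 75.2 in CV+HFM, which overlapped as well.

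By count, Fth1 had 7 sites in each GF+HFM library and 5.25 ± 2.06 in CV+HFM (SD, n = 4), a difference of -1.75 (exact permutation test, two-sided, p = 0.429). Per 1000 sites called, the direction was the opposite one. Fth1 held 0.201, 0.240, 0.213 and 0.208 sites per 1000 in GF+HFM and 0.253, 0.458, 0.355 and 0.734 in CV+HFM. The groups did not overlap on this scale, at 0.215 ± 0.0172 against 0.450 ± 0.207 (SD, n = 4 each), a difference of 0.234 (exact permutation test, two-sided, p = 0.0286). This is the smallest p that 4 against 4 libraries can give, and 4.92% of genes with a site reached it in this direction and 4.38% in the other. The highest shares were those of CV+HFM replicates 2 and 4, the lists with the fewest peaks, and without both libraries the difference was 0.0885, still with no overlap, where 4 against 2 libraries can give no p below 0.0667. In that setting Fth1 and Heph were among the 14.4% of genes with a site that reached this p with a higher share in CV+HFM. Atp2b1 was among the 4.22% that reached it with a lower share. The shares of Slc40a1 did not overlap either, but its p in the exact permutation test was 0.2. As a count, Fth1 without these libraries had 7 sites in each of the other 6, a difference of 0.

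Slc40a1 encodes ferroportin, the exporter that moves iron across the basolateral membrane. It lies on the minus strand at chr1:45964915-45982439. Its single site, chr1:45982663-45983110, ends 224 bp before the gene start and has its centre 434 bp upstream. Peaks of 170, 290 and 265 bp were called in GF+HFM replicates 1 to 3, at percentiles of 7.04, 47.7 and 18.7, and peaks of 182 and 237 bp in CV+HFM replicates 1 and 3, at 6.4 and 35.8. Calls in 3 and 2 libraries gave p = 1 in Fisher's exact test, and the widths overlapped.

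Heph encodes hephaestin, the copper oxidase that works beside ferroportin. Its single site, chrX:93650414-93651059, lies over the start of the gene (chrX:93650698-93769824, plus strand) and also over an exon of Hsf3 on the opposite strand. It was called in all libraries but CV+HFM replicate 4. Percentiles were 85.6, 91.7, 80.6 and 66.6 in GF+HFM replicates 1 to 4 and 91.3, 36.2 and 90.9 in CV+HFM replicates 1 to 3, so that CV+HFM replicate 2 alone fell below the others. The next sites lay 661293 bp upstream and 2311279 bp downstream of the gene.

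**Figure D2:**
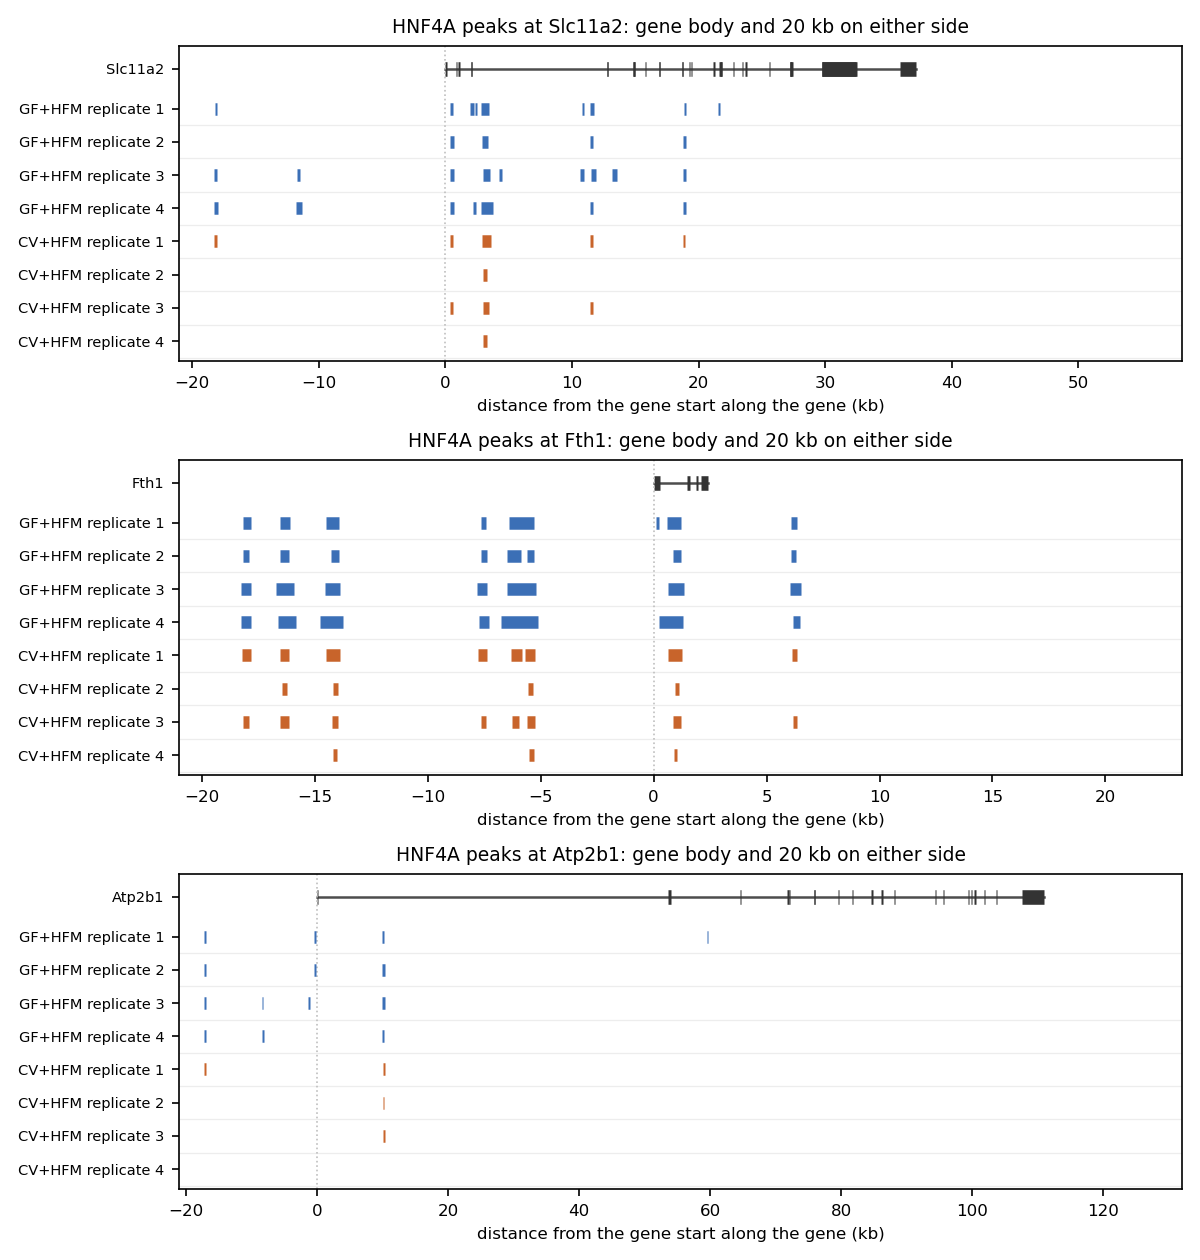
HNF4A peaks (bars) of each library at Slc11a2, Fth1 and Atp2b1 against the distance from the gene start in kb, with the gene body as a line and its exons as boxes in the top row of each panel. GF+HFM libraries are blue and CV+HFM libraries orange. Fth1 sites 3 and 5 recur upstream of the gene in all libraries. Widest peaks at site 5 are 636 to 1674 bp in GF+HFM and 229 to 511 bp in CV+HFM, where the list medians are 298 to 464 and 103 to 318 bp. Slc11a2 and Atp2b1 have 4 to 9 and 3 or 4 sites per library in GF+HFM, and 1 to 5 and 0 to 2 in CV+HFM. The groups overlap at Slc11a2, and the median difference over all genes with a site is -1.25.

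Calcium genes differed widely among themselves in the number of sites. Trpv6 encodes the apical calcium channel of the enterocyte, and S100g encodes calbindin-D9k, its cytosolic calcium carrier, and both are known targets of the vitamin D receptor. No library called a site within 20 kb of either gene, nor within 50 kb. The nearest sites to Trpv6 (chr6:41570620-41586404) lay 421419 bp downstream, with 2 calls in GF+HFM, and 588652 bp upstream, with 3 calls in GF+HFM and 1 in CV+HFM. The nearest to S100g (chrX:159399924-159402531), a gene inside the body of Ctps2, lay 131902 bp downstream, 503 bp from the start of Txlng, and 157379 bp upstream. A window without a site was common, at 34.5% of protein-coding genes.

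Atp2b1 encodes the plasma membrane calcium pump PMCA1, the basolateral exit for calcium. It spans chr10:98377786-98488777 on the plus strand, and its 6 sites gave 3.97 per 100 kb of window, more than 63% of protein-coding genes. Site 5, at chr10:98387763-98388132 lies in intron 1, 10210 bp past the start of the gene, and only CV+HFM replicate 4 lacked it. Its peaks measured 326, 333, 345 and 305 bp in GF+HFM replicates 1 to 4 and 313, 113 and 294 bp in CV+HFM replicates 1 to 3, where 113 bp is the narrowest width in the list of replicate 2. In percentiles these were 53.2, 60.0, 37.3 and 20.5 in GF+HFM and 48.5, 3.04 and 56.5 in CV+HFM, and the groups overlapped. Site 1, 17087 bp upstream, had a peak in every GF+HFM list and in that of CV+HFM replicate 1 (p = 0.143 by Fisher's exact test). Site 4, 255 bp before the gene start and with a GC content of 77% in its window, was called in GF+HFM replicates 1 and 2 only. Sites 2, 3 and 6 rested on 1 or 2 GF+HFM lists, with 0 calls in CV+HFM.

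Atp2b1 was the only member whose count of sites did not overlap between the groups. It held 4, 3, 4 and 3 sites in GF+HFM and 2, 1, 1 and 0 in CV+HFM, with means of 3.5 ± 0.577 and 1 ± 0.816 (SD, n = 4 each). The difference was -2.5 sites (exact permutation test, two-sided, p = 0.0286, and 0.234 after Benjamini-Hochberg adjustment over the 14653 protein-coding genes with a site). Of these genes, 12.2% reached the same p with fewer sites in CV+HFM and 0% with more, so 1 of the 6 members with a site is near the background. Without GF+HFM replicate 1, or without replicate 3, the p was 0.0571, with windows of 5 kb it was 0.114, and with peaks at least 300 bp wide 0.143. With CV+HFM replicates 2 and 4 left out, the difference was -2 sites and the groups still did not overlap (p = 0.0667 in the exact test, the smallest possible there, which 9.21% of genes with a site reached with fewer sites in CV+HFM and 0% with more). Per 1000 sites called, the values were 0.115, 0.103, 0.122 and 0.0890 in GF+HFM and 0.0722, 0.114, 0.0507 and 0 in CV+HFM, which overlapped (exact permutation test, p = 0.0857). The counts of Cybrd1, Slc40a1 and Heph, each of 0 or 1, gave p = 0.143, 1 and 1 in the same exact permutation test.

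**Figure D3:**
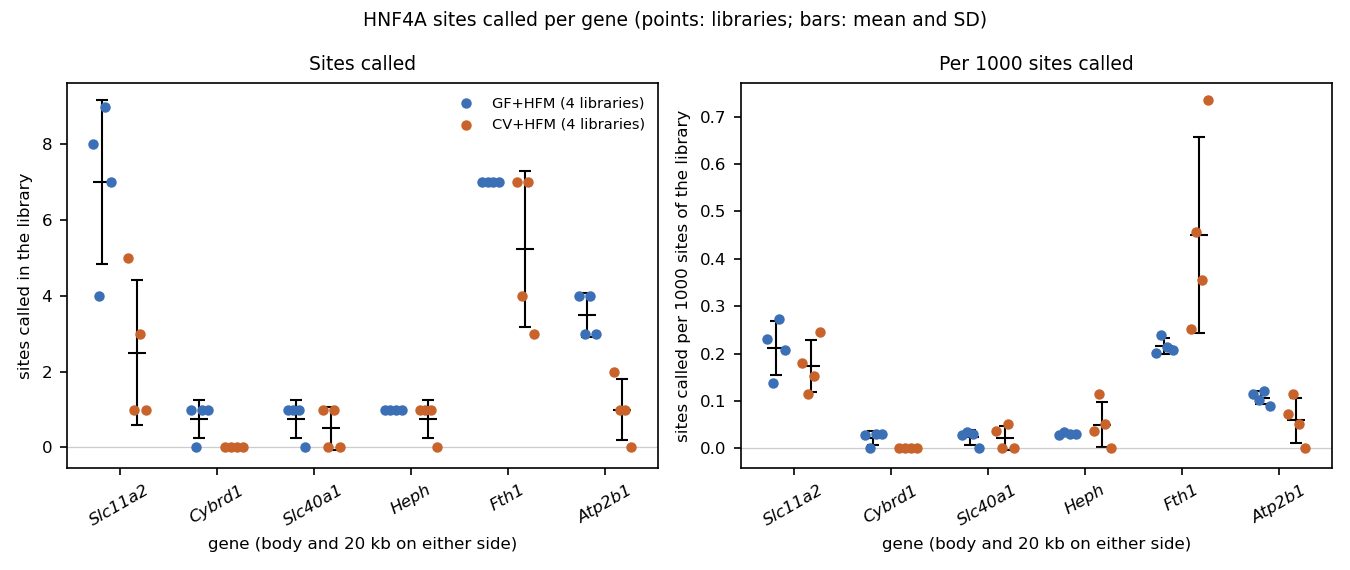
Sites called per library at the 6 genes with a site, as a count (left) and per 1000 sites called in the library (right). Points are libraries, GF+HFM in blue and CV+HFM in orange, and bars give mean and SD of 4. As a count only Atp2b1 separates the groups, 3 or 4 against 0 to 2, and per 1000 sites only Fth1 does, 0.201 to 0.240 against 0.253 to 0.734. Of all 14653 genes with a site, 12.2% reached the smallest p of the exact permutation test with fewer sites in CV+HFM. Per 1000 sites, 4.92% reached it with a higher share in CV+HFM and 4.38% with a lower one.

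To rank widths over the same sites in every library, only the 3445 sites called in all 8 libraries were used, of which 4 belonged to the members. Fth1 site 5 stood at percentiles of 93.3, 72.1, 90.5 and 95.5 in GF+HFM and of 42.7, 50.2, 21.2 and 79.2 in CV+HFM, where only CV+HFM replicate 4 and GF+HFM replicate 2 crossed. In limma on normal scores of these ranks, with Benjamini-Hochberg adjustment over all 3445 sites, the difference, CV+HFM minus GF+HFM, was -1.31 ± 0.42 (SE, limma adjusted p = 0.309). Slc11a2 site 5 stood at 45.6, 46.4, 24.3 and 61.0 in GF+HFM and at 74.5, 69.6, 53.3 and 90.9 in CV+HFM, with a single crossing, and its difference was 0.80 ± 0.39 (SE, limma adjusted p = 0.425). Fth1 site 3, at means of 38.7 ± 24.8 and 45.3 ± 28.4, and Fth1 site 6, at 49 ± 24.4 and 37.6 ± 24.6 (SD, n = 4 each), had differences of 0.17 ± 0.48 and -0.36 ± 0.45 (SE, limma adjusted p = 0.923 and 0.778). Limma called 0 of the 4 member sites at an adjusted p of 0.05, where over all 3445 sites it called 0.116% lower and 0% higher in CV+HFM. At an unadjusted p of 0.05 or less, limma had 1 of the 4, Fth1 site 5, and 11.6% of all 3445 sites in either direction.

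**Figure D4:**
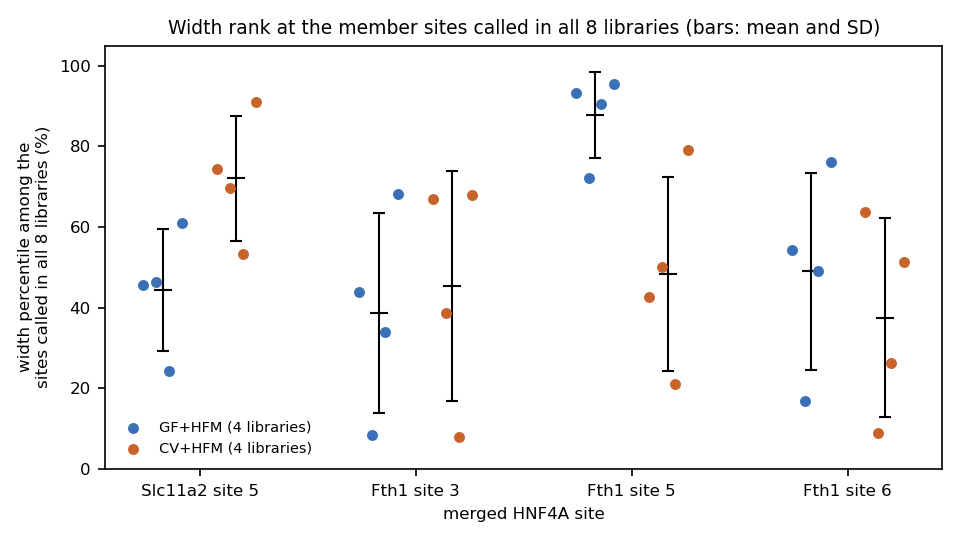
Width percentile of the 4 member sites among the 3445 sites called in all 8 libraries, with points for libraries and bars for mean and SD of 4 per group. On average Fth1 site 5 ranks higher in GF+HFM, 87.8 against 48.3, and Slc11a2 site 5 in CV+HFM, 72.1 against 44.3. The groups cross at both sites (limma adjusted p = 0.309 and 0.425), and the other 2 sites overlap broadly.

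Where any site was present, a protein-coding gene had a median of 3 sites, or 4.58 per 100 kb of window. Slc11a2 and Fth1 were above both medians, Atp2b1 was above the first and, at 3.97 per 100 kb, below the second, and Cybrd1, Slc40a1 and Heph, at 1.54, 1.74 and 0.628 per 100 kb, were below both. With windows of 5, 20 and 50 kb, Fth1 had 2, 7 and 9 sites, Slc11a2 had 9, 11 and 15 and Atp2b1 had 4, 6 and 9, while Heph stayed at 1.

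**Figure D5:**
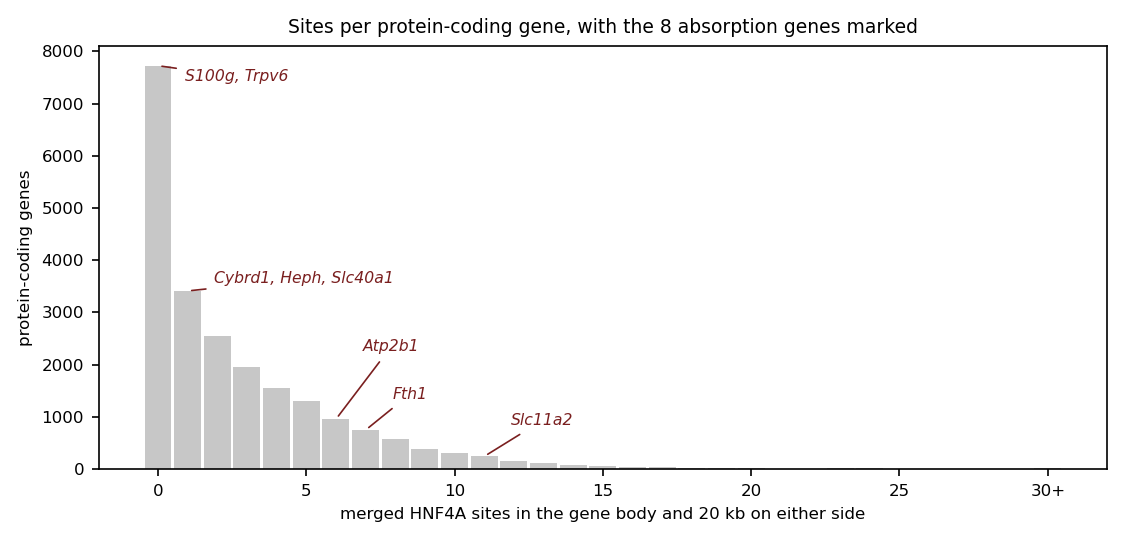
Number of protein-coding genes (bars, of 22380) by number of merged HNF4A sites in the gene body and 20 kb on either side, with the 8 absorption genes marked at their counts. The members run from 0 sites for Trpv6 and S100g to 11 for Slc11a2, and genes with 30 or more sites share the last bar.

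Other genes of iron handling numbered 24 in the list used, of which 21 were matched by symbol and 19 had a site. At an unadjusted p of 0.05 or less, 1 of the 19 had fewer sites in CV+HFM and 0 had more, against 12.2% and 0% of all genes with a site. That gene was Slc25a37, the mitochondrial iron importer mitoferrin, with 22 sites in its window and counts of 19, 14, 17 and 15 in GF+HFM and 11, 4, 9 and 1 in CV+HFM. The difference of -10 sites (exact permutation test, p = 0.0286, adjusted p = 0.234) became -0.108 per 1000 sites called (p = 0.0857 in the exact test). Per 1000 sites called, 0 of the 19 had a lower and 3 a higher share in CV+HFM, namely Slc39a14, a zinc and iron importer, and Aco1 and Ireb2, the iron regulatory proteins. Each had p = 0.0286 in the exact test, which 4.92% of all genes with a site reached with a higher and 4.38% with a lower share, and each difference in the count itself was negative. Hmox1, the heme oxygenase, and Steap4, a metalloreductase, had 0 sites.

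Calcium and vitamin D genes numbered 18 in the list, all matched, and 15 had a site. At an unadjusted p of 0.05 or less in the exact permutation test, 0 had more sites in CV+HFM, against 0% of all genes with a site. Vdr, the vitamin D receptor, had the most sites of either list, 23, with 20, 12, 15 and 15 called in GF+HFM and 12, 6, 8 and 3 in CV+HFM. These groups met at 12 (exact permutation test, p = 0.0571). Trpm6, an epithelial magnesium channel, had 16 sites and 12 ± 1.15 against 6.75 ± 4.27 calls (SD, n = 4 each, exact permutation test, p = 0.0857). Per 1000 sites called, Trpm6 and the calmodulin gene Calm3 had a higher share in CV+HFM, each with p = 0.0286 in the exact test, and 0 genes a lower one, beside the same 4.92% and 4.38% of all genes. Trpv5, the neighbor of Trpv6, had 0 sites, as had Slc8a1, the sodium-calcium exchanger, and Casr, the calcium-sensing receptor. The median difference in sites per gene was -1.25 over the 6 members with a site, -1.75 over the iron list, -1.25 over the calcium list and -1.25 over all 14653 genes.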

How the data were processed

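Peaks of HNF4A ChIP-seq from 4 GF+HFM and 4 CV+HFM mice were used. Alignment by the authors was with Bowtie2 on mm9, and MACS2 called the peaks of each library separately, over input DNA, at a false discovery rate of 0.05 and a bandwidth of 300 bp. The series lists a single input library for GF+HFM and a single one for CV+HFM. The part of the input in the calls and widths was not tested. The deposited values are positions (chromosome, start and end in bp) and a peak name, with no count, fold, score or p-value, so read depth is unknown and no counting error is given. Starts were converted to positions counted from 1. No peak lay past the end of a chromosome of the NCBIM37 (mm9) reference, and 9 of the names in column 1 are absent from it.

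The 8 members, gene lists and patterns were chosen with earlier results of these data known. All 8 members are named, with the leading site of each in full. From the other lists, genes with p of 0.05 or less and the 3 with the most sites are named, and genes with 0 sites or named per 1000 sites were added after their values were seen. Sequences of Fth1 sites 3 and 6 and the shortened Heph window were added in the same way. Annotation was GENCODE M1, and intron and exon numbers are those of the transcript with most exons unless stated. A library calls a site when any of its peaks lies in it. Width percentiles are mid-ranks within a list.

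Calls per site were compared by Fisher's exact test (scipy 1.17.1) and sites per gene by exact permutation tests over the 70 relabellings. Both were two-sided, with Benjamini-Hochberg adjustment over all sites or genes. For width rank, normal scores of the ranks entered limma 3.58.1 (R 4.3.3). Procedures were tested on simulated data. Each library is 1 mouse, so p-values measure the spread between mice and libraries together.

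Alternatives were each library left out in turn, peaks at least 300 bp wide, lists reduced to their 4533 widest peaks, at least 50% of a site covered, windows of 5 and 50 kb, all annotated genes, counts per 1000 sites, log2 width in place of rank, and a replicate block. Alternatives added after the data were seen used only the libraries whose identifier in the peak names ends in the letter A, or left out CV+HFM replicates 2 and 4 together. RNA-seq, H3K27ac and the libraries without the meal were not used here. For the calcium list, the result of 1 gene is not reported here.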

Additional observations from a re-analysis of the deposited data

Results flagged for a closer look

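In groups of 4 libraries, 43 sets of values were screened for 1 library far from the other 3, and 3 (6.98%) were found. Each was a site count of 0 where the other 3 libraries had 1: Cybrd1 in GF+HFM replicate 2, Slc40a1 in GF+HFM replicate 4, and Heph in CV+HFM replicate 4. Such a split of counts always passes the cutoff. Its rate of about 5% by chance is for continuous values, so 6.98% cannot be read against it. For Heph, the library at 0 is the one with 4533 peaks, the shortest list, and the part of its length was not tested. The Cybrd1 and Slc40a1 libraries at 0 had 31061 and 34183 peaks.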

How the results depend on the processing

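The number of sites at the 8 genes was 27 and ran from 24 to 29 with 1 library left out, was 18 with peaks at least 300 bp wide, 25 with identifiers ending in A only, and 6 with the 4533 widest peaks of each list. Fisher's exact test called 0 member sites in the main setting and 0 to 2 with 1 library left out. It called the Cybrd1 site without GF+HFM replicate 2, where it called 5.6% of all sites with fewer calls in CV+HFM, and Slc11a2 site 10 and Atp2b1 site 1 without CV+HFM replicate 1, where it called 10.9%, against 2.79% in the main setting. The count of genes with a different number of sites was 1 and ran from 0 to 2 with 1 library left out, with Cybrd1 added without GF+HFM replicate 2, where 10.3% of all genes were called with fewer sites. It was 0 with the 4533 widest peaks, 0 with 5 kb windows, 0 with CV+HFM replicates 1 and 3 only, where no exact p can fall below 0.0667, 0 with identifiers ending in A only, where the exact permutation test of 2 libraries against 3 cannot go below p = 0.1, and 1 per 1000 sites called, where it is Fth1 and not Atp2b1. For Atp2b1, 9 of 17 alternatives kept p at 0.05 or less, with a range from 0.0286 to 0.143. Slc11a2 reached p = 0.0286 (exact permutation test, -2.25 sites) with peaks at least 300 bp wide, as did 11.5% of all genes with fewer sites.

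Reversed differences were 0.5 sites for Slc11a2 and 0.25 for Heph with the widest peaks, 0.25 for Slc40a1 and, in width rank, 0.03 for Fth1 site 6 with CV+HFM replicates 1 and 3 only, 0.0195 for Heph and 0.234 for Fth1 per 1000 sites called, and, for the width rank of Fth1 site 3, -0.17 and -0.05 when GF+HFM replicate 2 or CV+HFM replicate 1 was left out, within a range up to 0.56 over all libraries left out. The cause was not tested. Cybrd1, Slc40a1 and Atp2b1 had no site with the widest peaks, and no member site was called in all 8 libraries with peaks at least 300 bp wide, so no value is given there. Limma called 0 member sites in each alternative that held one, while over all sites it called 4 in the main setting and 0 to 21 with 1 library left out. Its adjusted p ranged from 0.169 to 0.647 for Fth1 site 5, 0.32 to 0.86 for Slc11a2 site 5, 0.592 to 0.996 for Fth1 site 3 and 0.521 to 0.994 for Fth1 site 6.

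Same-numbered libraries come from different mice, and their deviations correlated at 0.0534, 0.0746, -0.0776 and 0.138, so the numbers do not pair them. With the number as a replicate block, 0 sites, 0 genes and 0 width ranks of members were called, and the smallest p that the block allows in the exact tests is 0.125. Without read counts, a site missing from a list cannot be told apart from one below its threshold.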
